A study of Mus musculus with 4 samples.

Results

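The MHC class I pathway was followed through 10 genes in bone marrow-derived macrophages (BMDMs), namely the class I chains H2-K1, H2-D1 and B2m, the peptide transport and loading genes Tap1, Tap2 and Tapbp, the immunoproteasome subunits Psmb8, Psmb9 and Psmb10, and the regulator Nlrc5. The members were chosen by name, as every non-control probe that the array annotation assigns to one of these symbols. All 10 were found among the 22194 genes with a symbol. They were measured by 12 of the 55679 probes, since H2-K1 and Nlrc5 had 2 probes each. All 12 probes were well above background on all 4 arrays, so no member was lost to low signal.

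Gene expression was measured with 4 Agilent whole mouse genome arrays in 1 colour. Bone marrow cells of 10-week-old C57BL/6J mice were grown for 6 days with L929 cell supernatant, a source of macrophage colony-stimulating factor, and were then stimulated for 2 days. Wild-type M1 BMDMs received 20 ng/ml IFN-γ and 100 ng/ml LPS, and wild-type M2 BMDMs received 50 ng/ml IL-4. Lamtor1-deficient M2 BMDMs received the same dose of IL-4. The labels give their genotype as p18 (2400001E08Rik) -/-, and the methods describe Lamtor1 flox/flox mice heterozygous for LysM-Cre, which recombines in myeloid cells and not in the whole animal. The methods name 2 kinds of control, Lamtor1 flox/flox littermates without Cre and purchased C57BL/6J mice, and the study's legends use wild type for BMDMs of the former. The labels give the genotype as wild type only. Torin1-treated M2 BMDMs were wild-type cells given 50 ng/ml IL-4 together with 250 nM Torin1, an ATP-competitive inhibitor of the kinase mTOR. Lamtor1 is the lysosomal anchor of the Ragulator complex, on which mTORC1 is activated. The 4 arrays are called M1, M2, KO (Lamtor1-deficient M2) and Torin1 (Torin1-treated M2) from here on. Each group was 1 array, so no test was possible and no p-value is given. The difference between 2 arrays cannot be told apart from the difference between 2 cultures.

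Class I molecules present peptides from the cytosol to CD8+ T cells. The peptides are cut by the proteasome, whose catalytic subunits are replaced after IFN-γ by those of the immunoproteasome, and are carried into the endoplasmic reticulum by the transporter of Tap1 and Tap2. There tapasin, encoded by Tapbp, holds the transporter beside the heavy chain and B2m until a peptide is bound. Nlrc5 acts on promoters of class I genes, and nearly all nucleated cells express class I at some level.

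The arrays were comparable in sensitivity but not in scale. Between 50.9% and 55.4% of probes were well above background, and no spot was saturated. The 75th percentile of the signal was 287 (M1), 595 (M2), 536 (KO) and 470.0 (Torin1), and each signal below was divided by this value of its own array (normalized signal). Lamtor1, listed under 2400001E08Rik, had a normalized signal of 51.2 in M1, 66.3 in M2, 1.55 in KO and 74.96 in Torin1 BMDMs, and 2.34% of the M2 level was left in the deficient cells. All 7 macrophage markers were well above background on every array, but their levels differed. In each comparison with M2 BMDMs 2 of the 7 were at least 2-fold lower. Emr1, which encodes F4/80, had log2 ratios to M2 of -1.04 in M1, -2.57 in KO and -2.81 in Torin1 BMDMs. The Fc receptor gene Fcgr1 was at 2.49, -4.96 and -4.61, and Csf1r, the receptor of the growth factor, at -1.24, -0.44 and -0.27. Cd68 was at 0.56, 0.55 and 0.70, Mertk at 0.42, 0.34 and 0.90 and Lyz2 at -0.61, 0.70 and 0.12, so the list did not go 1 way. The part of these markers in the results was not tested. Nos2 had a normalized signal of 581 in M1, 0.384 in M2, 18.6 in KO and 16.5 in Torin1 BMDMs. The M2 marker Arg1 was at 5.37, 76.2, 1.18 and 0.539. Of 6 M2 markers 5, all but Chi3l3, were at least 2-fold lower in KO and in Torin1 than in M2. Of 5 M1 markers above background, 4 were higher and 1 lower in KO, and 2 and 0 in Torin1. Of genes above background on either array, 10.48% were higher and 10.15% lower in KO, and 14.4% and 15.3% in Torin1. M2 in the array names thus means IL-4 treatment. In bulk RNA, fewer cells of a type and less RNA per cell cannot be told apart. Probes spotted at least 8 times gave a technical SD of the log2 ratio between 0.086 and 0.096, and differences within 2 technical SDs are described as within the spread of spots. This spread covers the array only and not the cultures.

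M1 and M2 BMDMs were compared to see how the pathway differed between the polarization states of wild-type cells. In M1 BMDMs all members had a higher normalized signal than in M2 BMDMs, except that Psmb10 turned lower with each array shifted to its median. The ratios were largest for Nlrc5, Tap1 and Tap2. The normalized signal was at least 2-fold higher for 9 of 10 members and at least 2-fold lower for 0, and Psmb10 was the exception. Of all genes, 30.0% were at least 2-fold higher and 19.7% at least 2-fold lower. The count of higher members was 5 with the array median or quantile normalization, where 15.2% and 18.4% of all genes were higher. The median log2 ratio of M1 over M2 was 1.99 over the members (range 0.58 to 3.33) and 0.70 over all genes. The all-gene median is itself a matter of scale. It was -0.12 with each array shifted to its median and -0.06 with quantile normalization. The share of higher genes among those changed 2-fold was 60.4%, against 31.9% and 43.1% under these scalings. It also depended on dim genes. For the 12459 genes that every array detected above background, the median was 0.018, with 2910 genes at least 2-fold higher and 3270 lower. The ratio exceeded 0.70 for 9 of 10 members and 0.018 for all 10. It was above 0 for 10 of 10 members, for 64.4% of all genes and for 6298 of the 12459.

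**Figure D1:**
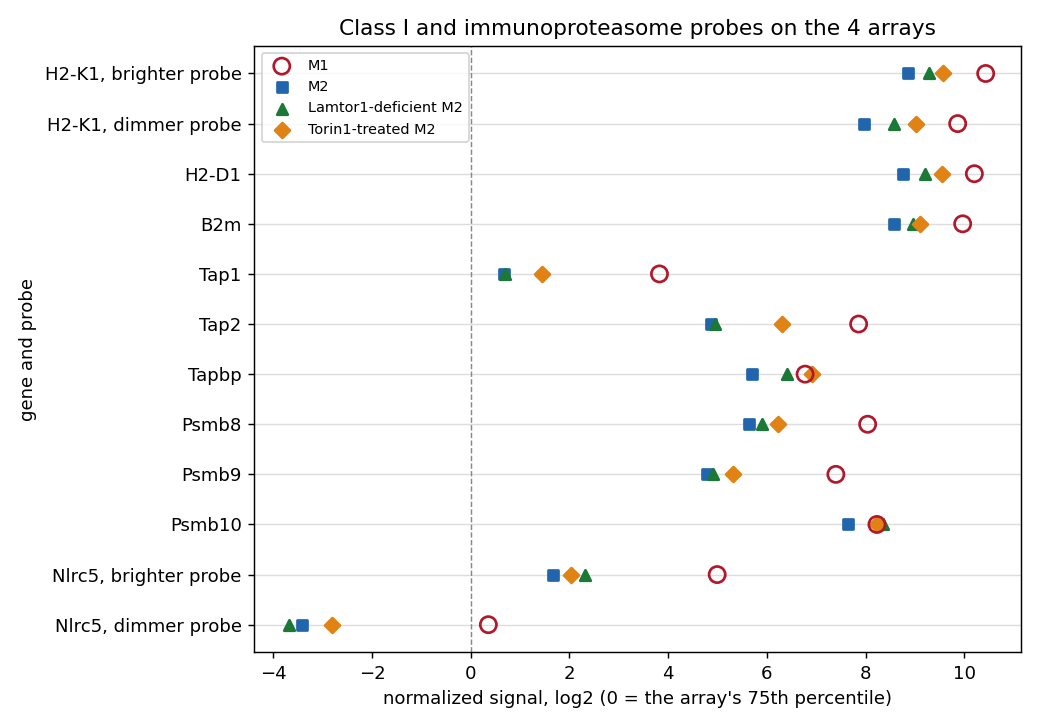
Normalized signal on a log2 scale (horizontal axis, 0 is the 75th percentile of the array) of the 12 probes of the 10 genes (vertical axis) on the 4 arrays, with 1 symbol per array. M1 (open circles) lies farthest to the right for 10 of 12 probes, the exceptions being Tapbp and Psmb10, and M2 (squares) farthest to the left for 11 of 12.

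Markers of other cell types also differed between these arrays. The summed normalized signal of 6 neutrophil markers was 331 in M1, 15.2 in M2, 1.28 in KO and 7.33 in Torin1 BMDMs, of which Lcn2 alone gave 329 in M1. In M1 BMDMs 4 of the 6 were well above background, and Camp and Mpo were 9.87-fold and 4.11-fold lower than in M2 while Mmp8 was 1.26-fold higher. Ltf and Ngp, which mark neutrophil granules, were not well above background there. The summed signal of 7 dendritic cell markers was 234 in M1, 97.1 in M2, 89.1 in KO and 165 in Torin1 BMDMs, of which Siglech gave 232, 96.7, 87.9 and 165. Zbtb46 was 8.39-fold higher in M1 than in M2 BMDMs, at 0.792 against 0.094. Flt3 was well above background in M1 and Torin1 BMDMs alone. Ccr7 was 5.83-fold higher in KO than in M2 BMDMs. Xcr1 and Cd209a were not well above background on any array. The summed signal of 6 fibroblast markers was 16.0 in M1, 43.2 in M2, 55.9 in KO and 15.3 in Torin1 BMDMs. The collagen gene Col1a2 gave most of it on all arrays but M1, where Dcn gave 9.27, a level 5.86-fold above M2. The part of these lists in the results was not tested either.

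The class I chains were among the brightest probes on every array, and M1 BMDMs were highest and M2 BMDMs lowest for each. The order of Torin1 and KO BMDMs between them depended on the scaling. H2-K1, a classical heavy chain, was read by a probe at chr17:34133055-34133114 (mm9, minus strand). Its normalized signal was 1383 in M1, 467 in M2, 627 in KO and 757 in Torin1 BMDMs. This probe was spotted 10 times per array, and the spots did not overlap between any of the arrays. They ran from 436 to 499 in M2, from 573 to 679 in KO, from 691 to 818 in Torin1 and from 1195 to 1562 in M1 BMDMs. The second H2-K1 probe, at chr17:34133984-34134043, gave 933, 251, 383 and 517 in the order M1, M2, KO and Torin1. Both probes thus gave the same order, and in M1 over M2 the log2 ratio was 1.57 for the first and 1.89 for the second.

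H2-D1, the other classical heavy chain of this strain, was measured at chr17:35403886-35403945 (mm9, plus strand). Its normalized signal was 1180 in M1, 436 in M2, 588 in KO and 754 in Torin1 BMDMs, so its order matched that of H2-K1 and all neighbours lay beyond the spread of spots at this scaling. B2m, the light chain shared by all class I molecules, was measured on chromosome 2 at chr2:121978401-121978460 (plus strand). Its normalized signal was 1001, 383, 498 and 549 in the same order of arrays. Torin1 and KO BMDMs differed for B2m by 0.14 on the log2 scale, which was within the spread of spots. The 2 spots of the B2m probe had an SD of 0.14 to 0.17 on the log2 scale within an array, wider than for most probes. The 3 chains changed together, with log2 ratios of M1 over M2 between 1.39 and 1.57. Before any scaling, the signal ratio of M1 over M2 was 1.43 for H2-K1, 1.31 for H2-D1 and 1.26 for B2m. With quantile normalization the log2 ratios were 0.41, 0.33 and 0.41, below 2-fold, and with the array median 0.75, 0.62 and 0.56. The log2 ratio of Torin1 over KO BMDMs was 0.27 for H2-K1, 0.36 for H2-D1 and 0.14 for B2m. It was -0.041, 0.046 and -0.17 with the array median, and 0.064, 0.13 and -0.13 with quantile normalization. Under quantile normalization H2-D1 was also at nearly the same level in M1 and Torin1 BMDMs (0.33 and 0.31 over M2).

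**Figure D2:**
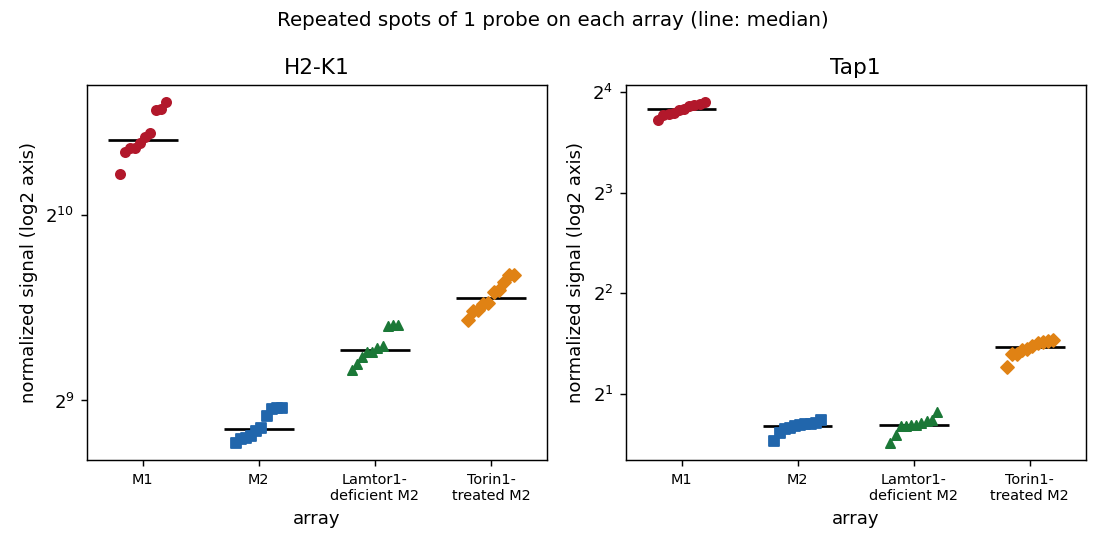
Normalized signal (vertical, log2 axis) of each of the 10 spots of the H2-K1 probe (left) and of the Tap1 probe (right) on the 4 arrays, sorted within an array, with the median as a line. For H2-K1 the 4 arrays do not overlap, and for Tap1 the M2 spots (1.44 to 1.67) overlap the KO spots (1.42 to 1.76).

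Class I genes resemble each other, and a probe may bind the transcript of a relative. The second H2-K1 probe shared a run of 29 bases with the probe of H2-T23, a non-classical class I gene. Both probes are printed for this overlap, with the shared run in capitals.
H2-K1: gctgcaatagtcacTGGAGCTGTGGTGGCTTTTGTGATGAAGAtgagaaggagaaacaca
H2-T23: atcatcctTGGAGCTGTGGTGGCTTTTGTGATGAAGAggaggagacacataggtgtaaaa
The first H2-K1 probe shared at most 8 bases in a row with any of the 38 other H2 class I probes, and the H2-D1 probe at most 12. Binding to whole transcripts was not tested. The promoters of the 3 chains are shown because these genes had close log2 ratios in M1 over M2. In Torin1 over M2 the log2 ratio of H2-D1 was larger than that of B2m by 0.27. With quantile normalization the 2 values were 0.31 and 0.01. They are the 250 bases before the transcription start in RefSeq (GRCm38.p6), at chr17:34000334-34000583 (minus strand) for H2-K1, chr17:35262844-35263093 (plus strand) for H2-D1 and chr2:122147437-122147686 (plus strand) for B2m. RefSeq lists 2 starts for H2-K1, of which the one farthest downstream is shown. Capitals mark matches, on either strand, to the NF-kB site of enhancer A (the first capitals in H2-K1 and H2-D1), the X2 box core TGACGC, the Y box core CCAAT and the core of the interferon-stimulated response element, which is GAAA repeated after 2 bases.
H2-K1: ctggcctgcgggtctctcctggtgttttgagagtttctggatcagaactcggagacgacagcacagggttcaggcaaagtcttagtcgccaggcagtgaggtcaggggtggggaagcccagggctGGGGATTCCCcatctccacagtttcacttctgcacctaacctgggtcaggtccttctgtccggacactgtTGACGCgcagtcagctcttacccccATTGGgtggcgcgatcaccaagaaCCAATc
H2-D1: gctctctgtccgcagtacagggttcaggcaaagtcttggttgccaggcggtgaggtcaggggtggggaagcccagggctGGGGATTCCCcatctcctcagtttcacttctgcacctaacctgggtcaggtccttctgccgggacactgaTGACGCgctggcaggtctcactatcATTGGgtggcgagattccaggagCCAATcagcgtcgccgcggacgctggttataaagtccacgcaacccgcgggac
B2m: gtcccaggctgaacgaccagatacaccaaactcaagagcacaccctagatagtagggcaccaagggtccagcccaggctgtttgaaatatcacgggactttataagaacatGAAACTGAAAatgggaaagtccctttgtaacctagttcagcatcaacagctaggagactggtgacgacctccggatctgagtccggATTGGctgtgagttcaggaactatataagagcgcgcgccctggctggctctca
The H2-K1 and H2-D1 promoters were equal at 169 of 204 aligned bases (82.8%). Motifs were searched in windows of 250 bases before and 50 bases after the start, and all matches in the members lay before it. The NF-kB site was found in 0.107% of the 32817 promoter windows of the mouse table, the X2 box core in 7.39%, the Y box core in 37.4% and the interferon-stimulated core in 3.43%. Among the 8 members with a window, the NF-kB site and the X2 box core were found in H2-K1 and H2-D1 alone, and the interferon-stimulated core in B2m alone. The Y box core was found in 6 of them. A match describes letters and does not show that a factor was bound.

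The transporter genes had larger M1 over M2 ratios than the chains, and Torin1 BMDMs were second in order for both. Tap1, measured at chr17:34330854-34330913 (mm9, plus strand), had a normalized signal of 14.2 in M1, 1.59 in M2, 1.61 in KO and 2.73 in Torin1 BMDMs. Its 10 spots ran from 13.2 to 14.9 in M1 and from 2.41 to 2.89 in Torin1 BMDMs, while those of M2 and KO BMDMs overlapped. Tap2, at chr17:34353116-34353175 (plus strand), had a normalized signal of 232 in M1, 29.1 in M2, 31.0 in KO and 79.5 in Torin1 BMDMs. M1 thus exceeded M2 8.91-fold for Tap1 and 7.98-fold for Tap2, and Torin1 exceeded untreated M2 BMDMs 1.72-fold and 2.73-fold. KO and M2 BMDMs were within the spread of spots for both genes, with log2 ratios of 0.02 and 0.09. The difference between the changes of 2 genes does not depend on a common factor per array. The log2 ratio of M1 over M2 was larger for Tap1 than for B2m by 1.77 and larger for Tap2 by 1.61.

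Tapbp, which encodes the loading chaperone tapasin, followed another order. Its probe at chr17:34065963-34066022 (plus strand) gave 109 in M1, 51.8 in M2, 85.0 in KO and 121 in Torin1 BMDMs. Torin1 and M1 BMDMs were within the spread of spots, and the other neighbours were beyond it. The log2 ratio of M1 over M2 was 1.08, with a signal ratio of 1.02 before scaling. With the array median the order turned, since the log2 ratio to M2 was 0.26 in M1, 0.78 in KO and 0.97 in Torin1 BMDMs. For KO over M2 BMDMs Tapbp was 1.64-fold higher, level with Psmb10 within the spread of spots, and it had the second largest ratio among the members for Torin1 over M2, 2.33-fold.

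Of the immunoproteasome subunits, Psmb8 and Psmb9 had larger M1 over M2 ratios than Psmb10. Psmb8, the chymotrypsin-like subunit, was measured at chr17:34337771-34337830 (mm9, plus strand) and had a normalized signal of 264 in M1, 49.6 in M2, 60.1 in KO and 74.9 in Torin1 BMDMs. Psmb9, at chr17:34319174-34319233 (minus strand), had 169, 27.5, 29.9 and 39.6 in the same order. M1 exceeded M2 BMDMs 5.31-fold for Psmb8 and 6.13-fold for Psmb9, while the other arrays lay within 1.51-fold of M2. Psmb10, on chromosome 8 at chr8:108459677-108459736 (minus strand), had a normalized signal of 300.2 in M1, 201 in M2, 329 in KO and 300.1 in Torin1 BMDMs. M2 BMDMs were lowest and the other arrays were within the spread of spots of their neighbours. The log2 ratio of M1 over M2 for Psmb10 was 0.58, under the 0.70 of all genes and above the 0.018 of the 12459 detected on all arrays. Its signal before scaling was lower in M1, with a ratio of 0.721, and the log2 ratio turned to -0.24 with the array median.

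Each immunoproteasome subunit takes the place of a constitutive one, and the changes of such a pair can be compared in the same way, although quantile normalization, which is not a common factor, moves their difference. In M1 over M2 the log2 ratio was 0.42 for Psmb5, 0.86 for Psmb6 and 0.39 for Psmb7, the constitutive counterparts of Psmb8, Psmb9 and Psmb10. The change in M1 exceeded that of the counterpart by 1.99 for Psmb8, by 1.75 for Psmb9 and by 0.19 for Psmb10, which turned to -0.027 with quantile normalization. In Torin1 BMDMs the differences to M2 were 1.17, 0.58 and 0.99 (1.38, 0.98 and 0.46 with quantile normalization), and the counterparts had log2 ratios of -0.58, -0.05 and -0.41. The value for Psmb6 (-0.05) was within the spread of spots, and it was 0.032 with the 75th percentile over detected probes. In KO BMDMs they were 0.23, -0.46 and 0.53, so the direction for Psmb9 was opposite to that of the other pairs.

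**Figure D3:**
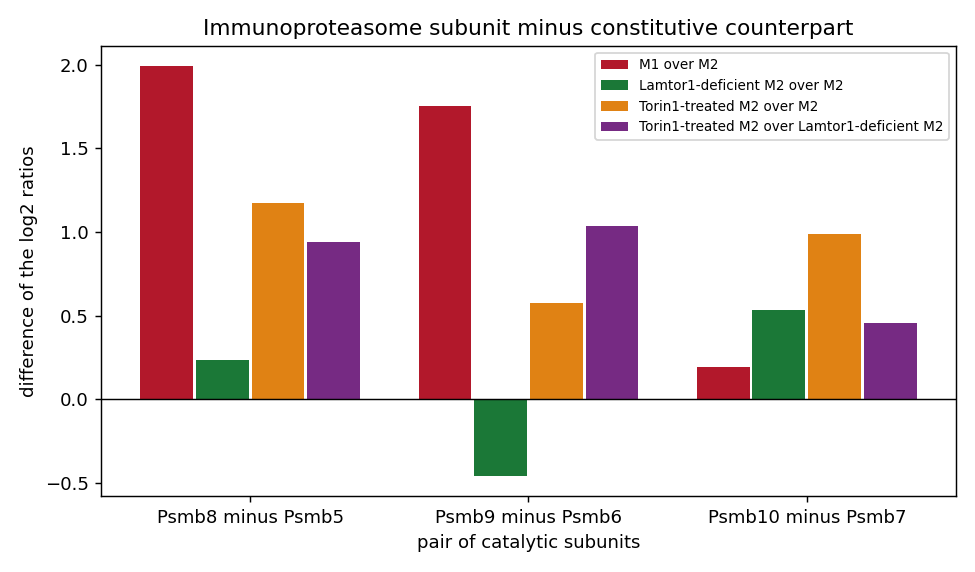
Difference between the log2 ratio of an immunoproteasome subunit and that of its constitutive counterpart (vertical axis) for the 3 pairs (horizontal axis), with 1 bar per comparison and no replicate to give an error. The bars for M1 over M2 are highest for Psmb8 (1.99) and Psmb9 (1.75), and the only bar below 0 is Psmb9 in KO over M2 (-0.46).

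Tap1 and Psmb9 lie head to head, and their promoters are shown because they share most of their bases. Their starts are 226 bases apart, and the 250-base windows at chr17:34187306-34187555 (GRCm38.p6, plus strand, Tap1) and chr17:34187331-34187580 (minus strand, Psmb9) have 225 bases in common on opposite strands. Capitals mark the Y box core, CCAAT or ATTGG.
Tap1: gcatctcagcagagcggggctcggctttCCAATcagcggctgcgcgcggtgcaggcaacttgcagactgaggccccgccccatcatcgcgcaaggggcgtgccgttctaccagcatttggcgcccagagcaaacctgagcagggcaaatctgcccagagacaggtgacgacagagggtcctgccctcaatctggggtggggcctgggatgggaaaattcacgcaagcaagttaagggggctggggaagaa
Psmb9: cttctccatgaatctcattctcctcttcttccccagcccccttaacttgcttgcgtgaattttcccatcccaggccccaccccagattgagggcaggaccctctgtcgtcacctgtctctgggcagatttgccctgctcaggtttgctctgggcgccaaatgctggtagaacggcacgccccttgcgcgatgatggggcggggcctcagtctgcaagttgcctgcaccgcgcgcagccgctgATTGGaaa
The genes that share this stretch did not change by the same amount. The log2 ratio was larger for Tap1 than for Psmb9 by 0.54 in M1 over M2 and by 0.26 in Torin1 over M2. In KO over M2 the difference was -0.10, within the spread of spots. The Psmb8 window held a gamma-activated site core, TTCNNNGAA, which 8.29% of all windows held, and the Psmb10 window held none of the motifs searched. Tap2 and Nlrc5 had no window in the table.

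Nlrc5, the transactivator of class I genes, had the largest M1 over M2 ratio among the members. Its brighter probe, at chr8:97051105-97051164 (mm9, plus strand), gave a normalized signal of 31.9 in M1, 3.17 in M2, 4.99 in KO and 4.06 in Torin1 BMDMs, a 10.1-fold difference between M1 and M2. The dimmer probe, between 97030478 and 97030624, a span longer than its 60 bases, gave 1.28, 0.094, 0.078 and 0.143, a 13.7-fold difference. Both probes put M1 far above the other arrays, but they disagreed on the rest. KO BMDMs were second for the brighter probe and lowest for the dimmer one, with log2 ratios to M2 of 0.65 and -0.26. For Torin1 over KO BMDMs the log2 ratios were -0.30 and 0.87. The order of Nlrc5 among the IL-4-treated arrays is therefore not settled by these probes.

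Loss of Lamtor1 in M2 BMDMs was compared with wild-type M2 BMDMs to see how the pathway differed under the same IL-4 dose. No member reached 2-fold in either direction (0 higher and 0 lower of 10), where 8.94% of all genes were at least 2-fold higher and 8.48% lower. The log2 ratio was above 0 for 10 of 10 members on their brightest probe, as it was for 63.6% of all genes. The median was 0.40 over the members (range 0.02 to 0.72) and 0.04 over all genes, or 0.086 over those detected on all arrays. Tapbp and Psmb10 were at 0.72 and 0.71 (0.54 and 0.57 with quantile normalization), Nlrc5 at 0.65 on its brighter and -0.26 on its dimmer probe, the chains lay between 0.38 and 0.43, Psmb8 was at 0.28, and Tap1, Tap2 and Psmb9 lay between 0.02 and 0.12, within the spread of spots. With quantile normalization the median was 0.15, and 8 of 10 ratios were above 0. All 6 neutrophil markers were at least 2-fold lower in KO than in M2 BMDMs, Ltf by a log2 ratio of -5.21. Among 10 lymphocyte markers, 8 were well above background in KO BMDMs and 4 on each other array. Their summed normalized signal was 13.9 there and 7.56 to 15.3 on the others. Cd3d, Cd3g, Cd8a and Ncr1 were above background only there, at 0.158, 0.065, 0.086 and 0.229, and the part of either marker list in the result was not tested.

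Torin1 BMDMs differed from untreated M2 BMDMs more than KO BMDMs did for 8 of 10 members, and for 6 of 10 with the array median. The comparison addresses the inhibition of mTOR under the same IL-4 dose. Tap2 and Tapbp were at least 2-fold higher, so 2 of 10 members passed this threshold and 0 were lower, against 13.9% and 11.9% of all genes. The second H2-K1 probe, which the count does not use, was 2.06-fold higher. The log2 ratio was above 0 for 10 of 10 members and for 47.0% of all genes. The median was 0.65 over the members (range 0.36 to 1.45) and -0.06 over all genes, or 0.0022 over those detected on all arrays. Single log2 ratios were 0.78 for Tap1, 1.45 for Tap2, 1.22 for Tapbp, 0.70 for H2-K1, 0.79 for H2-D1 and 0.52 for B2m. The subunits Psmb8, Psmb9 and Psmb10 lay close together at 0.59, 0.53 and 0.58. All 10 ratios were above the all-gene median under each scaling tried. With the array median, Tap2 alone remained past 2-fold, where 9.74% of all genes were at least 2-fold higher. The share of higher genes among those changed was 38.0% there in place of 53.9%. With quantile normalization B2m was at 0.01. Both comparisons use the same M2 array, so an error on that array enters both. Other cell markers moved with this comparison too. Of 6 neutrophil markers 5 were at least 2-fold lower than in M2 BMDMs, Ltf by a log2 ratio of -6.59, and Mmp8 was higher (2.47). Siglech had a log2 ratio of 0.77, and the dendritic cell marker Clec9a was well above background with Torin1 alone, at 0.143. The summed signal fell from 43.2 to 15.3 for the fibroblast markers and from 13.5 to 7.56 for the lymphocyte markers. Their part in the result was not tested.

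**Figure D4:**
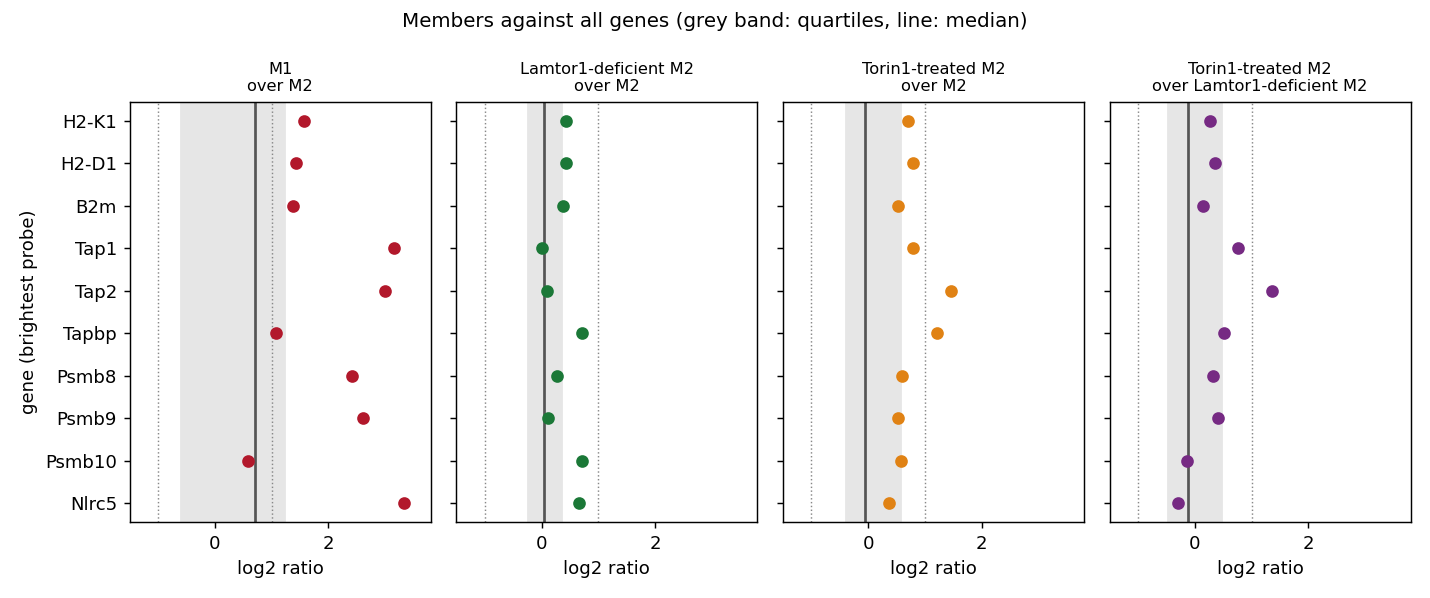
Log2 ratio (horizontal axis) of the 10 genes (vertical axis, brightest probe) in the 4 comparisons, each with the median of all genes (line), their quartiles (grey band) and 2-fold limits (dotted). In M1 over M2 the members run from 0.58 to 3.33, in KO over M2 from 0.02 to 0.72, and in Torin1 over M2 from 0.36 to 1.45.

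The IL-4-treated arrays with Torin1 and without Lamtor1 were also compared directly, which leaves the M2 array out. Tap2 was at least 2-fold higher with Torin1, and it was the 1 of 10 members past that threshold, where 12.2% of all genes were higher and 11.9% lower. The median log2 ratio was 0.34 over the members and -0.12 over all genes. The ratio was above 0 for 8 of 10 members and for 43.0% of all genes. It was 1.36 for Tap2, 0.77 for Tap1 and 0.51 for Tapbp, and between 0.14 and 0.41 for the chains, Psmb8 and Psmb9. It was -0.13 for Psmb10, and for Nlrc5 it was -0.30 on the brighter probe. With the array median the members' median was 0.025 and H2-K1 turned from 0.27 to -0.04, while the share of higher genes among those changed went from 50.6% to 30.5%. The transporter genes had log2 ratios of 1.05 for Tap2 and 0.45 for Tap1 under that scaling.

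**Figure D5:**
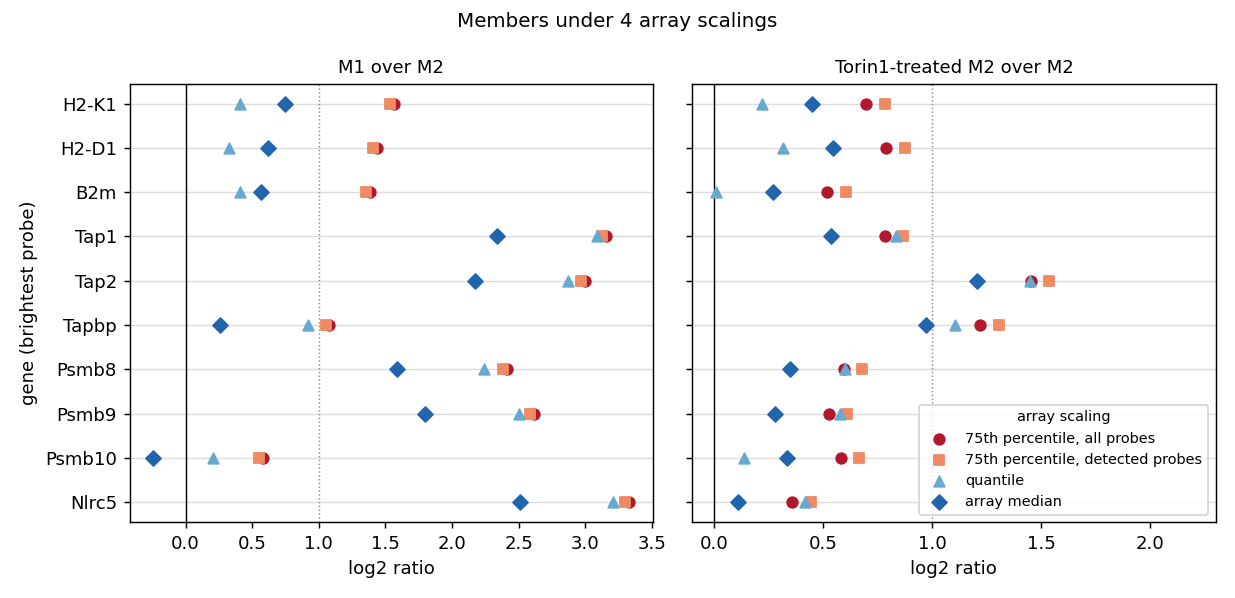
Log2 ratio (horizontal axis) of the 10 genes (vertical axis, brightest probe) under 4 array scalings, for M1 over M2 (left) and Torin1 over M2 (right), with 2-fold as a dotted line. Tap1, Tap2, Psmb8, Psmb9 and Nlrc5 stay past 2-fold in M1 under all 4, the chains and Tapbp do not, and Psmb10 lies between -0.24 and 0.58.

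The remaining heavy chains of the family were examined as a list of 20 genes on the array. Counts past 2-fold in this list and the next ones cover genes well above background on at least 1 of the 2 arrays compared, here 19, 18 and 18 in the order M1, KO and Torin1 over M2. In M1 BMDMs 15 were at least 2-fold higher and 3 lower, where 27.6% of all genes under the same filter were higher and 28.1% lower. In KO BMDMs 5 were higher and 2 lower (10.48% and 10.15% of the filtered genes), and in Torin1 BMDMs 8 were higher and 2 lower (14.4% and 15.3%). With the array median 10, 5 and 4 were higher in M1, KO and Torin1 and the counts of lower genes stayed the same. Under that scaling and without the filter, 15.2%, 9.75% and 9.74% of all genes were higher and 32.4%, 7.92% and 15.9% lower. The median log2 ratios over all 20 were 1.82, 0.48 and 0.89. H2-Q8, a non-classical gene of the Q region, had a normalized signal of 1051 in M1, 8.27 in M2, 34.3 in KO and 65.1 in Torin1 BMDMs. H2-T10 and H2-T9 had log2 ratios of 4.87 and 4.77 in M1, and of 1.12 and 1.20 in KO BMDMs. H2-M2 and Hfe, which binds the transferrin receptor and presents no peptide, were lower in M1, by log2 ratios of -4.78 and -3.50. Hfe was lower still with Torin1 (-4.64). Many of these genes are close relatives in sequence, and the share of relatives in each signal was not tested.

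Of 14 other loading and trimming genes, 1 was at least 2-fold higher and 7 lower in M1 over M2, with a median log2 ratio of -1.03. The shares among the filtered genes were 27.6% and 28.1%. The 1 higher gene was Tapbpl, a relative of tapasin that edits peptides, with log2 ratios of 3.39 in M1, 1.02 in KO and 1.70 in Torin1 BMDMs. The chaperone Canx was at -2.40 in M1, and the cytosolic peptidases Thop1, Blmh and Nrd1 were at -2.997, -2.12 and -1.76. In KO BMDMs 1 gene was higher and 0 lower, and in Torin1 BMDMs 2 were higher and 3 lower, beside the shares given for the heavy chains. With quantile normalization 0 were higher in KO, where 8.86% of all genes were. With the array median 10 genes were lower in M1, where 32.4% of all genes were. In Torin1 1 was then higher and 5 lower, against 9.74% and 15.9% of all genes. Among 10 proteasome activators and assembly genes, 3 were higher and 3 lower in M1, against 27.6% and 28.1% of the filtered genes. With the array median 1 was higher and 4 lower, against 15.2% and 32.4% of all genes. The activator Psme2 was higher, with a log2 ratio of 2.11, and the assembly chaperones Psmg1, Psmg2 and Psmg4 were lower (-3.36, -3.18 and -2.27). The activator Psme3 was lower in KO and Torin1 BMDMs (-1.37 and -2.02), the 1 gene of this list past 2-fold in each, where 10.15% and 15.3% of the filtered genes were lower.

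Of 27 regulators of class I expression, 26, 26 and 27 were above background in the comparisons of M1, KO and Torin1 with M2 BMDMs. In M1, 10 were at least 2-fold higher and 6 lower, against 27.6% and 28.1% of the filtered genes. With the array median the balance turned to 7 higher and 9 lower, where 15.2% of all genes were higher and 32.4% lower. In KO, 1 was higher and 2 lower (10.48% and 10.15% of the filtered genes), and Rfx5, not well above background on either array, was at -1.11. With the array median 1 was higher and 1 lower in KO, against 9.75% and 7.92% of all genes. In Torin1, 2 were higher and 6 lower (14.4% and 15.3%). Irf1, a transcription factor that binds class I promoters, had a normalized signal of 657 in M1, 49.3 in M2, 57.5 in KO and 138 in Torin1 BMDMs. Stat2, which carries the interferon signal, had log2 ratios of 3.55 in M1, -0.56 in KO and -0.60 in Torin1 BMDMs. Socs3, an inhibitor of cytokine receptor signalling, had log2 ratios of 8.59, 1.74 and 1.42 in M1, KO and Torin1 over M2 BMDMs. Ciita, the class II counterpart of Nlrc5, was lower on all 3 arrays (-1.52, -2.43 and -2.71).

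Genes with a pattern most like the members were sought among 12449 non-member genes well above background on all arrays, as the smallest distance between log2 levels centred on each gene's mean over 4 arrays. They were Irx4, Dyrk1a, Spsb2, Psenen and Prkce, at distances of 0.066, 0.074, 0.108, 0.108 and 0.127 from the members' median pattern. The members lay at 0.379 (H2-K1) to 1.31 (Psmb10) from it. With 4 arrays the pattern rests on few values. The share of candidates that lay closer than a member ran from 0.83% for H2-K1 to 29.6% for Psmb10.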

How the data were processed

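Per the labels and methods, Cy3-labelled cRNA of each sample was hybridised to 1 Agilent 8 × 60K array. The deposited scanner files hold intensity values per spot, and the processed signal is background-subtracted and detrended within the array by Feature Extraction (version 10.7.3.1 in the file headers, 10.5.1.1 in the submitters' processing notes). The intensities of the deposited series table differed from these by at most 0.497%.

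As in the methods, signals below 1 were raised to 1 and each array was divided by its 75th percentile over non-control probes. Control and outlier spots were left out, spots of a probe were averaged, and log2 ratios were taken on the brightest probe per gene (highest mean log2 level). Background means Agilent's call per spot. Every probe of a member was reported. Up to 5 genes per pathway list past 2-fold were named by size. Members, lists and motifs were chosen with earlier results of these data known. Groups had 1 array, so counts past 2-fold replace a test. The number of arrays limits precision. Calculations, with quantile normalization among them, used Python 3.11.15. The normexp background correction used limma 3.58.1 in R 4.3.3. Counting was checked on simulated data. Alternatives were other scalings, background correction, probe choice, filters and a 3-fold threshold. Probe positions are those of the array annotation (mm9), which names no exon or UTR. Promoters are from RefSeq (GRCm38.p6).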

Additional observations from a re-analysis of the deposited data

Results flagged for a closer look

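Some genes went in opposite directions in Lamtor1-deficient and Torin1-treated BMDMs, each against the same M2 array and by more than the spread of spots at the main scaling. None of these differences was tested, since each group was 1 array. Among the members this held for the dimmer probe of Nlrc5, at -0.26 without Lamtor1 and 0.61 with Torin1 (log2 ratios to M2). The brighter Nlrc5 probe did not show it. Higher without Lamtor1 and lower with Torin1 were the aminopeptidase Lap3 (0.76 and -0.98), the translocon subunit Sec61a1 (0.77 and -0.54), the vesicle protein Sec22b (0.30 and -0.35), the proteasome assembly genes Psmg1 (0.20 and -0.25) and Psmg3 (0.22 and -0.57), the constitutive subunit Psmb7 (0.18 and -0.41), the transcription factor Stat3 (0.34 and -0.59) and the Y box factor subunit Nfyc (0.19 and -0.28). Lower without Lamtor1 and higher with Torin1 were Irf8 (-0.31 and 0.37), Irf9 (-0.49 and 0.22) and the Y box factor subunit Nfyb (-0.20 and 0.26). With each array shifted to its median, 11 of these 12 probes kept opposite signs and 9 kept both values beyond the spread of spots. Irf9 lost the opposite sign there (-0.43 and -0.025), and Nfyb (-0.14 and 0.016) and Irf8 (-0.25 and 0.12) fell within the spread on at least 1 side. With quantile normalization and with the 75th percentile over detected probes all 12 kept opposite signs, with 7 and 8 beyond the spread. Lap3, Sec61a1, Stat3 and the dimmer Nlrc5 probe stayed beyond it under all 3 alternatives.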

How the results depend on the processing

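No paired analysis was possible because each group had 1 array. Of 96 counts of members past the threshold, 90 stayed within 1.5 times the main count, and 35 of 44 medians moved by less than 1 technical SD. For M1 over M2, 9 members higher became 5 with the array median, 5 with quantile normalization and 5 at 3-fold. The share of all genes higher went from 30.0% to 15.2%, 18.4% and 18.8% in the same order. The median of 1.99 became 1.17 with the array median, 1.58 with quantile normalization, 1.85 with normexp and 2.15 with the dimmest probe. For Torin1-treated over M2, 2 higher became 1 with the array median and 0 at 3-fold, while 13.9% of all genes became 9.74% and 6.11%. The members' median of 0.65 became 0.40 with the array median and 0.50 with quantile normalization. For Lamtor1-deficient over M2, the median of 0.40 became 0.15 with quantile normalization. For Torin1-treated over Lamtor1-deficient, the median of 0.34 became 0.025 with the array median and 0.49 with the 75th percentile over detected probes. There 1 higher became 0 at 3-fold, while 12.2% of all genes became 5.64%. Of 440 values for single genes, 345 moved by less than 1 technical SD. Of those that lay beyond the spread of spots 5 changed sign, which were Psmb10 in M1 over M2 (-0.24, array median), H2-K1 in Torin1-treated over Lamtor1-deficient (-0.041, array median), Nlrc5 in that comparison (0.29 as the mean of its probes, 0.87 on the dimmer) and Nlrc5 in Lamtor1-deficient over M2 (-0.26, dimmer probe). Another 6 changed sign from a value within that spread, namely B2m in Torin1-treated over Lamtor1-deficient (0.14 to -0.17 with the array median and -0.13 with quantile normalization), Psmb10 there (-0.13 to 0.021 with the 75th percentile over detected probes), and in Lamtor1-deficient over M2 Tap1 (0.017 to -0.050, the same percentile), Tap2 (0.091 to -0.053) and Psmb9 (0.12 to -0.025), both with quantile normalization. The cause was not tested. Leaving out an array was not possible with 1 per group.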
